A study of Mus musculus with 2 samples.

Results

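The 10 genes described here, Fabp7, Slc1a3, Glul, Gja1, Aldh1l1, Aqp4, S100b, Ptprz1, Tnc and Sparcl1, are markers of radial glia and astrocytes, and they were followed in neural tube dissected from mice at embryonic day 12.5. They were taken by name and matched by Ensembl identifier, and all 10 were found among the 43346 mouse genes of the deposited tables. The study is a total RNA-seq survey of neural tubes from healthy embryos of strain B6NCrl, and it holds 1 group of 2 libraries with no treatment, genotype or second stage. Replicate 1 was made from a pool of 120 embryos and replicate 2 from a pool of 88, both of mixed sex and under the same donor identifier, with 10 ng of RNA longer than 200 nucleotides each. A pool is bulk tissue, so fewer cells of a type and less RNA per cell cannot be told apart.

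Radial glia are the elongated progenitors that line the ventricle of the neural tube and span its wall, and they give rise to neurons first and to glia later. Astrocytes arise late from such progenitors, take up glutamate, buffer water and ions, and keep several radial glial genes active. In the mouse spinal cord the switch from neuron to glia production begins around the stage sampled here, so genes of radial glia and genes of mature astrocytes are both of interest in this tissue.

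The libraries held 31610805 expected counts on mouse genes in replicate 1 and 33530172 in replicate 2, and the 10 genes took 0.128% of them in each. Over 17627 genes the chi-square of the counts, divided by its degrees of freedom, was 7.35, so sampling noise alone did not separate the libraries and they were kept as 2 samples. With 1 group no test between conditions exists, and levels are given as deposited TPM (transcript abundance scaled for length and depth) per library and as mean ± SD (n = 2), in which the SD measures the spread of these pools alone.

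The genes spread widely in level, from Fabp7 among the most abundant transcripts of the tissue to Aqp4 at under 1 TPM. At a threshold of 1 TPM in both libraries 8 of the 10 were detected, against 62.1% of 21474 protein-coding genes, and S100b and Aqp4 were not. The same 62.1% is the share to set beside each count of detected genes in the other lists below. The median of the 10 was 37.2 TPM in replicate 1 and 40.7 TPM in replicate 2, against medians of 5.50 and 5.66 TPM over all protein-coding genes. Fabp7 alone held 79.9% of their summed TPM in replicate 1 and 80.6% in replicate 2. Without a correction for length, it held 51.1% and 52.1% of their expected counts. In order of mean TPM came Fabp7, Glul, Gja1, Slc1a3, Sparcl1, Ptprz1, Aldh1l1, Tnc, S100b and Aqp4. The ranges of Glul and Gja1 over the libraries overlapped, and so did those of Slc1a3 and Sparcl1, while the other 7 neighbouring pairs in this order did not overlap. Of these 7, the deposited TPM intervals of Aldh1l1 and Tnc, and of S100b and Aqp4, still overlapped in replicate 1.

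**Figure D1:**
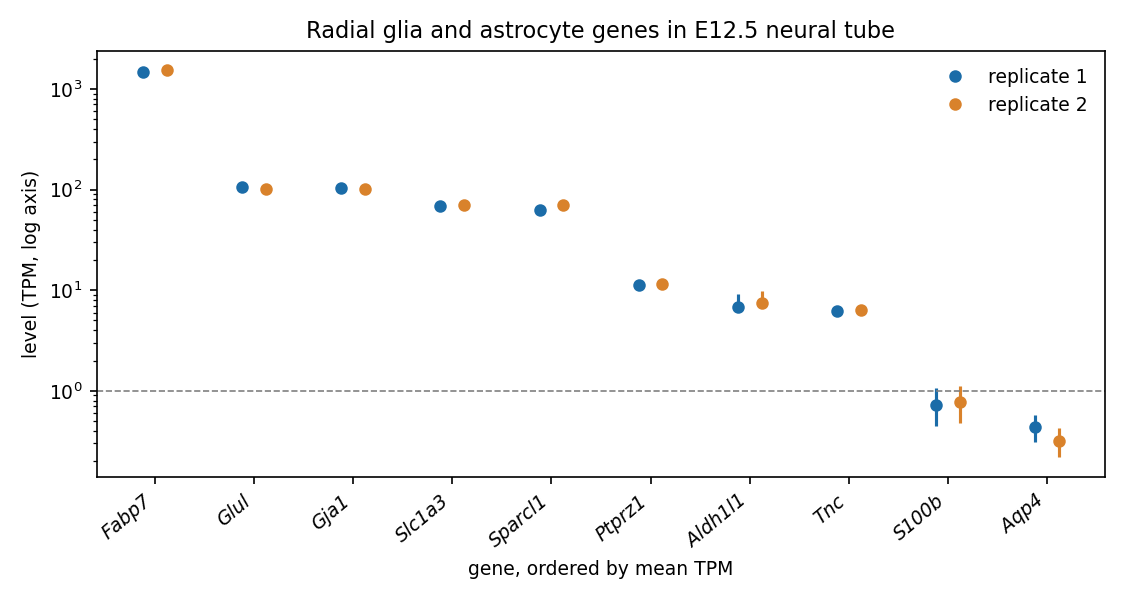
Level of each gene in TPM on a log axis in replicate 1 and replicate 2 (points), with the deposited credibility interval of TPM (lines) and the threshold of 1 TPM (dashed line). Fabp7 stands at 1469 and 1537 TPM, and only S100b and Aqp4 lie under 1 TPM in both libraries.

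Fabp7 encodes the brain fatty acid binding protein, a carrier of long-chain fatty acids and a classical marker of radial glia. Its level was 1469 TPM in replicate 1 and 1537 in replicate 2 (1503 ± 48.2, SD, n = 2), which placed it at rank 33 of 21474 protein-coding genes. The next gene of the list, Glul, was 14.4-fold lower in mean TPM. Fabp5, the epidermal member of the same family, had 517 and 531 TPM in replicates 1 and 2. Fabp3, the heart member, had 44.2 and 39.5 TPM. Fabp7 thus stood above Fabp5 in both libraries, by 1.52 ± 0.02 on the log2(TPM + 1) scale, and above Fabp3 by 5.14 ± 0.16.

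Fabp7 (ENSMUSG00000019874) lies on the forward strand at chr10:57784881-57788450 (GRCm38, as for all positions given), and the bases before its annotated start are shown because Fabp7 is the highest gene of the list. RefSeq promoter windows on GRCm38.p6 were found for 8 of the 10 genes. In the 250 bases before each RefSeq start, both strands were searched for TATAAA (the usual core promoter box, in 12.4% of 32817 windows), CCAAT (33.8%), TTGGC (the short form of the nuclear factor I site, 41.5%), TGGGAA (the core of the Notch effector Rbpj, 21.6%), TTCNNNGAA (STAT, 7.01%), ATGCAAAT (the POU octamer, 1.60%) and TGAGTCA (AP-1, 4.46%). CCAAT and TTGGC can share letters, as in GCCAAT. Capitals mark every match in the 208 bases at chr10:57784673-57784880:
Fabp7: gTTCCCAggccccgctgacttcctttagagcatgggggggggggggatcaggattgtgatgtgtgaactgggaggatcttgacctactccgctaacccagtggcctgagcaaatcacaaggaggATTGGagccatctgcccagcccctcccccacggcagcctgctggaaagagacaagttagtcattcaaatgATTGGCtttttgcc
These letters hold 2 CCAAT matches in reverse, 1 of which shares letters with a TTGGC match, and 1 match of TGGGAA in reverse. Matches of such short motifs are common among all windows, and they describe the letters alone.

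Genes of glutamate handling were present on both sides of the cycle, uptake and conversion to glutamine. Slc1a3 (ENSMUSG00000005360, chr15:8634124-8710764, reverse strand) encodes GLAST, the glutamate transporter of radial glia and astrocytes, and its level was 68.6 TPM in replicate 1 and 70.5 in replicate 2. Slc1a2, which encodes GLT-1, the main transporter of mature astrocytes, had 13.6 and 13.4 TPM. The neuronal transporter gene Slc1a1 had 9.15 and 8.79 TPM. Slc1a3 was above Slc1a2 by 2.28 ± 0.04 and above Slc1a1 by 2.82 ± 0.06 on the log2(TPM + 1) scale, in both libraries each. In CPM, which are scaled for depth but not for length, Slc1a3 exceeded Slc1a2 by 0.84.

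Glul (ENSMUSG00000026473, chr1:153899944-153909723, forward strand) encodes glutamine synthetase, which joins glutamate and ammonia, and reached 107 TPM in replicate 1 and 101 in replicate 2 (104 ± 4.42). All 8 other genes of glutamate and glutamine metabolism were detected, led by the aminotransferase Got2 (154 ± 7.28 TPM), the amino acid transporter Slc38a2 (135 ± 7.81 TPM) and the dehydrogenase Glud1 (84.7 ± 5.01 TPM). Slc38a3, a glutamine transporter of astrocytes, had 10.6 and 11.7 TPM in replicates 1 and 2.

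Gja1 (ENSMUSG00000050953, chr10:56377330-56402513, forward strand) encodes connexin 43, the gap junction channel that couples radial glia and, later, astrocytes. Gja1 stood at 104 TPM in replicate 1 and 102 in replicate 2 (103 ± 1.41). The other connexins compared were lower in both libraries. Gjb6, which encodes connexin 30 of mature astrocytes, had 8.17 and 7.76 TPM, and Gja1 exceeded it by 3.54 ± 0.03 on the log2(TPM + 1) scale. Gjb2 (connexin 26) had 20.9 and 24.5 TPM. Gjc1 (connexin 45) was closest, with 68.6 and 70.2 TPM, and Gja1 exceeded it by 0.56 ± 0.04, or by 1.48 in CPM. Connective tissue also uses Gja1, and 11 of 11 markers of fibroblasts and pericytes were detected, with a summed level of 951 TPM in replicate 1 and 988 TPM in replicate 2 and no marker at 0. Their part in the level of Gja1 was not tested.

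Ptprz1, Tnc and Sparcl1 encode proteins of the cell surface and matrix of glia. Ptprz1 (ENSMUSG00000068748, chr6:22875502-23052916, forward strand) is a receptor tyrosine phosphatase that carries chondroitin sulfate chains, and reached 11.2 TPM in replicate 1 and 11.5 in replicate 2. Ptprg, its closest relative, had 33.2 and 29.8 TPM. Ptprz1 was lower than Ptprg in both libraries on the log2(TPM + 1) scale, by a difference of -1.39 ± 0.14. The 2 genes were much closer in expected counts, with 1767 and 1895 for Ptprz1 against 2067 and 2005 for Ptprg. The annotated transcript of Ptprz1 has 8068 nucleotides, whereas those of Ptprg averaged 3234. The difference was -0.15 in CPM (counts scaled for depth but not for length). It was -1.64 with counts per length of the transcript taken as full-length for each gene, an alternative chosen after seeing the data. That transcript was the one with a consensus coding sequence and the most counts. For Ptprg it had 2787 nucleotides, below the average of 3234, so it may not be full-length. The value of -1.64 therefore does not show that a correction for length widens the difference.

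Tnc (ENSMUSG00000028364, chr4:63959785-64047015, reverse strand) encodes tenascin C, a large matrix glycoprotein around radial glia, and reached 6.27 TPM in replicate 1 and 6.41 in replicate 2 (865 and 926 expected counts). Tnr, the related tenascin of neurons and oligodendrocytes, had 1.46 and 1.66 TPM. Tnxb, the tenascin of connective tissue, had 4 and 5 expected counts. Tnc was above Tnr by 1.52 ± 0.06 on the log2(TPM + 1) scale, by 2.71 in CPM, and by 2.34 with counts per length of the full-length transcript. Cartilage and its precursors also make Tnc. Of 6 cartilage and sclerotome markers 4 were detected, near the share of 62.1% over all protein-coding genes, so this count alone says little. Their median was 5.32 TPM in replicate 1 and 4.25 TPM in replicate 2, and their summed level was 186 and 170.2 TPM. Col2a1 made up most of that sum, with 160.1 and 151 TPM, while Acan and Matn1 stayed under 1 TPM in both libraries and none was at 0. Whether such cells added to Tnc was not tested.

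Of 14 ligands, receptors and matrix partners of Ptprz1 and Tnc, 13 were detected, against 62.1% of all protein-coding genes. They were led by the growth factors midkine (Mdk, 640 ± 1.71 TPM) and pleiotrophin (Ptn, 148 ± 2.40 TPM), both ligands of Ptprz1, and by the integrin subunit Itgb1 (137 ± 10.2 TPM). The integrin subunits Itga8 and Itga9, which bind Tnc in pairs with Itgb1, had 3.25 ± 0.18 and 8.27 ± 0.66 TPM. Itgb6, at 0.37 and 0.19 TPM in replicates 1 and 2, was the 1 partner under 1 TPM in both.

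Sparcl1 (ENSMUSG00000029309, chr5:104079111-104113733, reverse strand) encodes hevin, a secreted matrix protein of astrocytes that is also made by blood vessels. Its level was 63.3 TPM in replicate 1 and 69.9 in replicate 2 (66.6 ± 4.69). Sparc, its relative in bone, vessel and connective tissue matrix, had 492 and 463 TPM. Sparcl1 was lower than Sparc in both libraries, by a difference of -2.82 ± 0.16 on the log2(TPM + 1) scale, -1.69 in CPM, and -2.14 with counts per length of the full-length transcript.

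Aldh1l1, S100b and Aqp4 are best known from mature astrocytes, and S100b and Aqp4 were the lowest of the 10 genes. Aldh1l1 (ENSMUSG00000030088, chr6:90486427-90600203, forward strand), a folate enzyme that oxidises 10-formyltetrahydrofolate and a widely used astrocyte marker, reached 6.85 TPM in replicate 1 and 7.41 in replicate 2 (7.13 ± 0.40). Its mitochondrial relative Aldh1l2 had 10.6 TPM in each library. Aldh1l1 was lower than Aldh1l2 by a difference of -0.51 ± 0.07 on the log2(TPM + 1) scale. That difference was -1.20 in CPM and -0.23 with counts per length of the full-length transcript.

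S100b (ENSMUSG00000033208, chr10:76253853-76261159, forward strand), a calcium-binding protein of astrocytes and Schwann cells, had 20 and 22 expected counts, which came to 0.73 TPM in replicate 1 and 0.77 TPM in replicate 2. S100a1, a related calcium-binding protein, had 5.92 and 4.11 TPM. The deposited intervals of S100b ran from 0.444 to 1.07 TPM in replicate 1 and from 0.476 to 1.11 TPM in replicate 2, so its level may lie on either side of the threshold. Markers of Schwann cells and neural crest, which also use S100b, were detected in 8 of 8 cases with a summed level of 165 TPM in replicate 1 and 197 TPM in replicate 2, and none was at 0. Their part in the S100b counts was not tested. The last 1731 nucleotides of the S100b locus also overlap Dip2a on the opposite strand, a gene with 12.4 and 11.8 TPM, and the sources do not state a strand setting for the counting.

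The 250 bases before the RefSeq start of S100b, chr10:76253586-76253835 on the forward strand, are shown as the counterpart of Fabp7, since S100b is the lowest gene for which a window was found:
S100b: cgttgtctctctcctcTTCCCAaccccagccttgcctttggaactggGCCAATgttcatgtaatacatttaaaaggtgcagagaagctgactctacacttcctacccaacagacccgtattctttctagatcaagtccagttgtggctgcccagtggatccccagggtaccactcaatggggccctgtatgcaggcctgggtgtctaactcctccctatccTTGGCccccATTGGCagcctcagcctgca
Capitals again mark matches of the searched motifs. The window holds 2 CCAAT matches, 3 TTGGC matches and 1 TGGGAA match. Each motif found before Fabp7 also has a match here.

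Aqp4, the water channel of astrocyte end feet, drew 44 expected counts in replicate 1, against 33 in replicate 2, which came to 0.44 and 0.32 TPM. Aqp1, another water channel, had 2.78 and 2.45 TPM. Aqp4 was lower than Aqp1 in both libraries, by a mean difference of -1.39 on the log2(TPM + 1) scale. At such low levels the pseudocount shapes this value, which was -2.51 with a pseudocount of 0.1 TPM. Genes of the complex that anchors Aqp4 were present all the same, and 6 of 7 were detected, against 62.1% of all protein-coding genes. In TPM they were led by dystroglycan (Dag1, 49.0 ± 4.70 TPM), dystrophin (Dmd, 16.2 ± 1.92 TPM) and utrophin (Utrn, 9.97 ± 0.55 TPM). In expected counts, which are not scaled for length, Utrn came above Dmd. Utrn had 2341 and 2628 counts in replicates 1 and 2, against 667 and 836 for Dmd. The anchoring genes serve many cell types. The channel gene Trpv4 was under 1 TPM in both libraries (0.76 and 0.83 TPM).

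Across 9 main pairs of a listed gene and a relative, the listed gene was higher in both libraries in 4 (Fabp7 over Fabp5, Slc1a3 over Slc1a2, Gja1 over Gjb6 and Tnc over Tnr). The relative was higher in both libraries in the other 5 (Aldh1l2, Aqp1, S100a1, Ptprg and Sparc). The deposited TPM intervals of the 2 genes were apart in both libraries for each of these pairs.

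**Figure D2:**
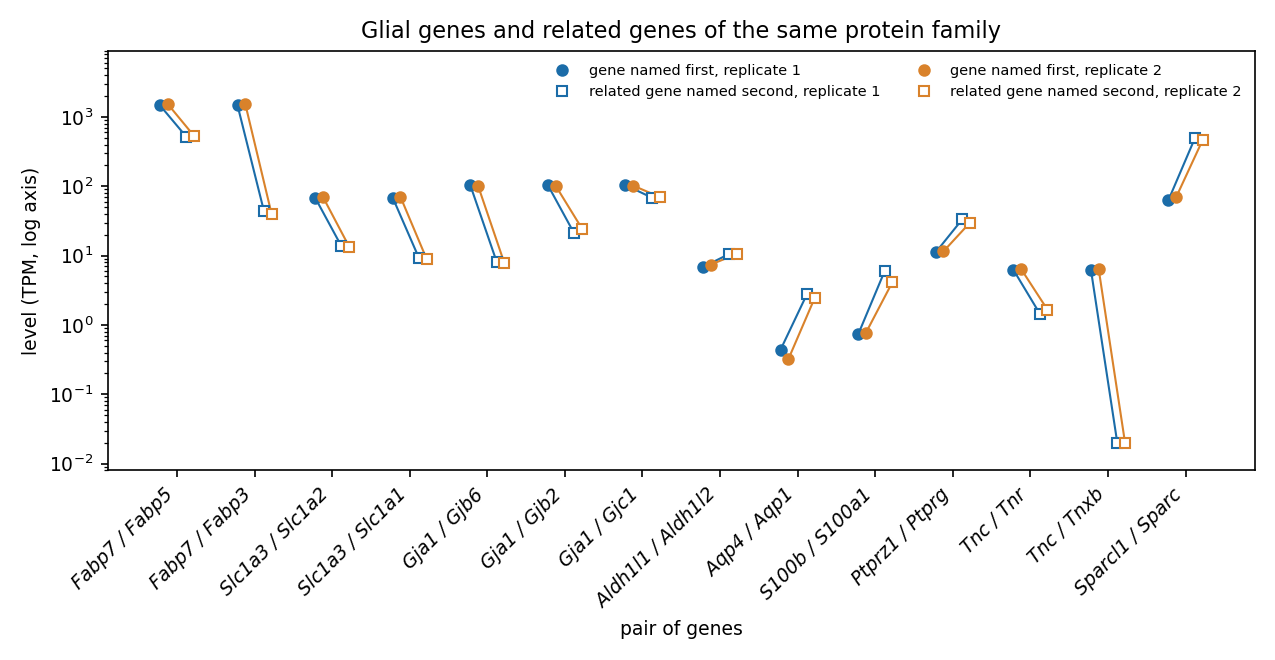
Level in TPM on a log axis of each listed gene (filled circles) and of a related gene (open squares) in the 14 pairs compared, with lines joining values of 1 library. Circles lie above squares in both libraries for the fatty acid binding protein, glutamate transporter, connexin and tenascin pairs, and below them for Aldh1l1, Aqp4, S100b, Ptprz1 and Sparcl1.

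Of 15 further radial glia and progenitor genes, 14 were detected, with a median of 51.6 ± 1.10 TPM. They were led by Dbi (1140 ± 49.8 TPM), which binds acyl-CoA, vimentin (Vim, 962 ± 35.9 TPM), which forms filaments, and Hes5 (333 ± 8.10 TPM), a repressor under Notch control, and Fam107a was under 1 TPM in both libraries (0.62 and 0.84 TPM). Of 18 further genes of mature astrocytes, 14 were detected, with a median of 7.46 ± 0.34 TPM. Over all protein-coding genes the share detected was 62.1%. The protease inhibitor Cst3 (278 ± 4.89 TPM) and the apolipoprotein Apoe (168 ± 1.97 TPM), which other cell types such as macrophages also make, stood highest, with the receptor Fgfr3 (49.3 ± 2.28 TPM) after them. Gfap, the filament of mature astrocytes, had 0.06 and 0.10 TPM, Agt 0.08 and 0.24 TPM, and the adhesion protein Hepacam 0.26 and 0.42 TPM. The median of the 10 listed genes, 39.0 ± 2.47 TPM, lay between the medians of these lists, and the medians were not tested against each other. It is the midpoint of a gap between Sparcl1 (66.6 TPM) and Ptprz1 (11.3 TPM) in which no listed gene lies, so it describes no single gene.

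Regulators of the switch to glia production were nearly all present. Of 22 such genes 21 were detected, against 62.1% of all protein-coding genes, with a median of 33.1 ± 0.47 TPM. They were led by the transcriptional inhibitor Id3 (271 ± 3.74 TPM), the glial factor Sox9 (101 ± 1.21 TPM) and Id1 (86.8 ± 2.36 TPM). Lif, a cytokine that drives astrocyte genes through STAT3, drew 1 expected count in replicate 1 and none in replicate 2. At this depth a count of 0 leaves room for up to 0.0895 CPM (counting error only).

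The deposited TPM of Glul sums transcripts of very different length. Of its 5 annotated transcripts, Glul-202 (681 nucleotides) held 50.4% of Glul TPM in replicate 1 and 54.4% in replicate 2, and Glul-203 (379 nucleotides) held 22.8% and 22.4%. Both are models whose coding sequence has no annotated end. The full-length Glul-201, of 2792 nucleotides, held 25.1% and 21.9% of TPM but 65.0% and 60.5% of the expected counts. When all counts of the gene were divided by the length of the full-length transcript, the same alternative, Glul came to 39.0 ± 3.40 on the TPM scale, against 104 ± 4.42 in the deposited TPM. It then came after Fabp7, Gja1, Sparcl1 and Slc1a3, whereas in deposited TPM it came directly after Fabp7. Slc1a3, with 4 retained-intron models that held 21.1% and 22.2% of its TPM, came to 54.5 ± 0.31 on that scale, against 69.5 ± 1.36 in deposited TPM. Gja1, Aqp4, S100b, Ptprz1 and Sparcl1 have 1 transcript each in the annotation used, so for them the scales are equal by construction, up to rounding. Among the remaining genes, Fabp7, Tnc and Aldh1l1, the largest change by ratio was that of Aldh1l1, with 7.27 on that scale, against 7.13 in deposited TPM.

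**Figure D3:**
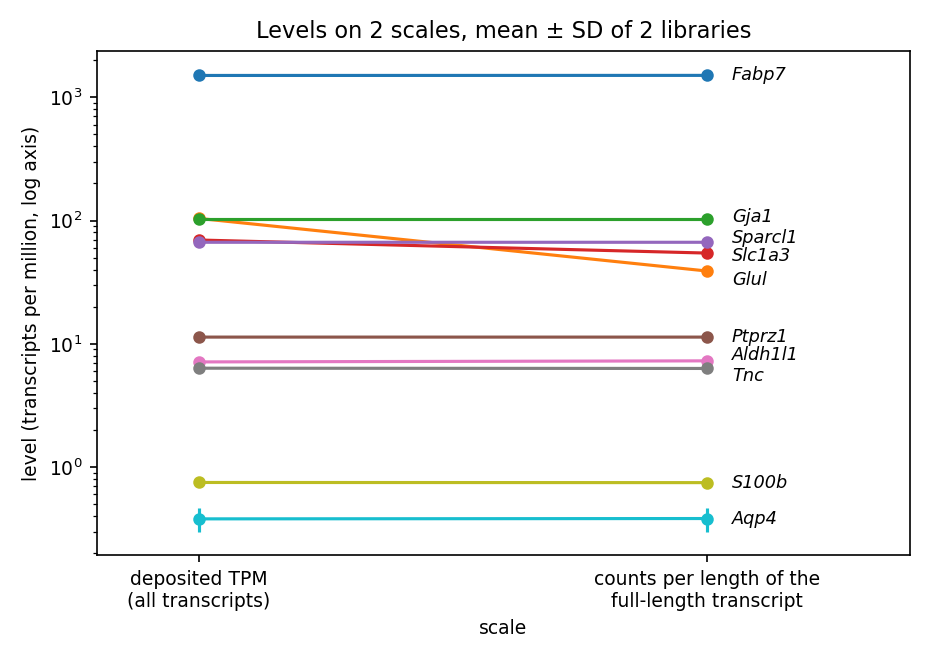
Level of the 10 genes on a log axis as deposited TPM over all transcripts (left) and as counts per length of the full-length transcript on the same scale (right), as the mean (points) and SD (lines) of 2 libraries. Glul crosses Gja1, Slc1a3 and Sparcl1, with 104 on the left and 39.0 on the right.

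Transcript use was compared between the libraries for the 5 genes with several annotated transcripts, and the other 5 (Gja1, Aqp4, S100b, Ptprz1 and Sparcl1) had 1 each in the annotation used. The leading transcript was the same in both libraries in 5 of 5, while it differed in 7.39% of 8304 comparable genes, all with more than 1 transcript and a level of 5 TPM or higher. Fabp7-201 held 98.8% of Fabp7 TPM in replicate 1 and 98.6% in replicate 2. Slc1a3-201 held 70.5% and 69.4% of Slc1a3 TPM, followed by the retained-intron model Slc1a3-205 with 9.70% and 11.99%. Aldh1l1-201 held 88.3% and 77.3% of Aldh1l1 TPM, and Aldh1l1-203, with the same coding length of 2706 nucleotides, held 11.7% and 15.7%. Later annotation lists 6 transcripts for Ptprz1, 11 for Aqp4, 8 for Gja1 and 2 for Sparcl1, so their forms were not separated here.

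Tnc was the exception in size. Tnc-204 held 41.1% of its TPM in replicate 1 and 78.7% in replicate 2. Tnc-201 held 24.9% in replicate 1 and 0% in replicate 2, and Tnc-203 held 34.0% and 21.3%. By the deposited posterior mean, Tnc-204 held 40.9% and 69.5%, and Tnc-201 held 24.8% and 7.51%. The largest difference of a Tnc transcript between the libraries, 37.6 percentage points, was larger than the largest difference of 99.7% of the 8304 genes and of 98.4% of the 1129 genes at 5 to 10 TPM. The deposited TPM intervals were wide, from 1.46 to 3.65 TPM in replicate 1 and from 3.33 to 5.35 TPM in replicate 2 for Tnc-204, and they overlapped between the libraries for every Tnc transcript.

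The 3 Tnc models with TPM above 0, Tnc-201, Tnc-203 and Tnc-204, differ in 2 exons. Tnc-204 has a noncoding exon of 267 nucleotides at its start that Tnc-201 lacks, and it shares all 25 exons of Tnc-201 and its coding length of 6057 nucleotides. Tnc-203 has a coding exon of 273 nucleotides, or 91 codons, that Tnc-201 and Tnc-204 skip. It lies at chr4:63984460-63984732 on the reverse strand of GRCm38 and is 1 of 6 exons of that length in Tnc-203. Alternative splicing of Tnc is known to add or leave out fibronectin type III repeats. Forms with this exon held 34.0% of Tnc TPM in replicate 1 and 21.3% in replicate 2 (27.6 ± 8.98%), and forms without it held 66.0% and 78.7%. The exon (capitals) is shown with 12 bases of the exon on either side, above the junction that forms when it is skipped:
Tnc-203: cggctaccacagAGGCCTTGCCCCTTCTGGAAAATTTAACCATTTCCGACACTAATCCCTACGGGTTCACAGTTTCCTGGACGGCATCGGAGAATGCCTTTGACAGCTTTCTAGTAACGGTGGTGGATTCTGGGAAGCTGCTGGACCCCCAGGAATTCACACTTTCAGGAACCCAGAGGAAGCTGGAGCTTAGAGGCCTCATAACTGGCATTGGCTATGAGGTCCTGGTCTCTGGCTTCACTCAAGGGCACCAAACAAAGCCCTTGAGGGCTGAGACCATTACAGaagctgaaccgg
Tnc-204: cggctaccacagaagctgaaccgg
Both lines are coding sequence, taken from the GENCODE transcripts, and the whole exon keeps the reading frame because its length is a multiple of 3.

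The start of Tnc-204, the leading Tnc transcript in both libraries, coincides with a RefSeq start. The 250 bases before it, chr4:64047016-64047265 on the reverse strand, are shown because they hold the rarest of the searched motifs:
Tnc: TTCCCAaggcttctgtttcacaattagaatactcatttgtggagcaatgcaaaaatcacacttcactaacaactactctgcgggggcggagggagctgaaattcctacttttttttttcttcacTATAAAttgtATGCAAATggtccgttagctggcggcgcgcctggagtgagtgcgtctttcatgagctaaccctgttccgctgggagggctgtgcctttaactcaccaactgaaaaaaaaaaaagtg
Capitals mark a TGGGAA match in reverse, TATAAA 126 bases before the start, and ATGCAAAT 116 bases before it. The octamer was present in 1.60% of all windows. A match does not show that a factor binds there.

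**Figure D4:**
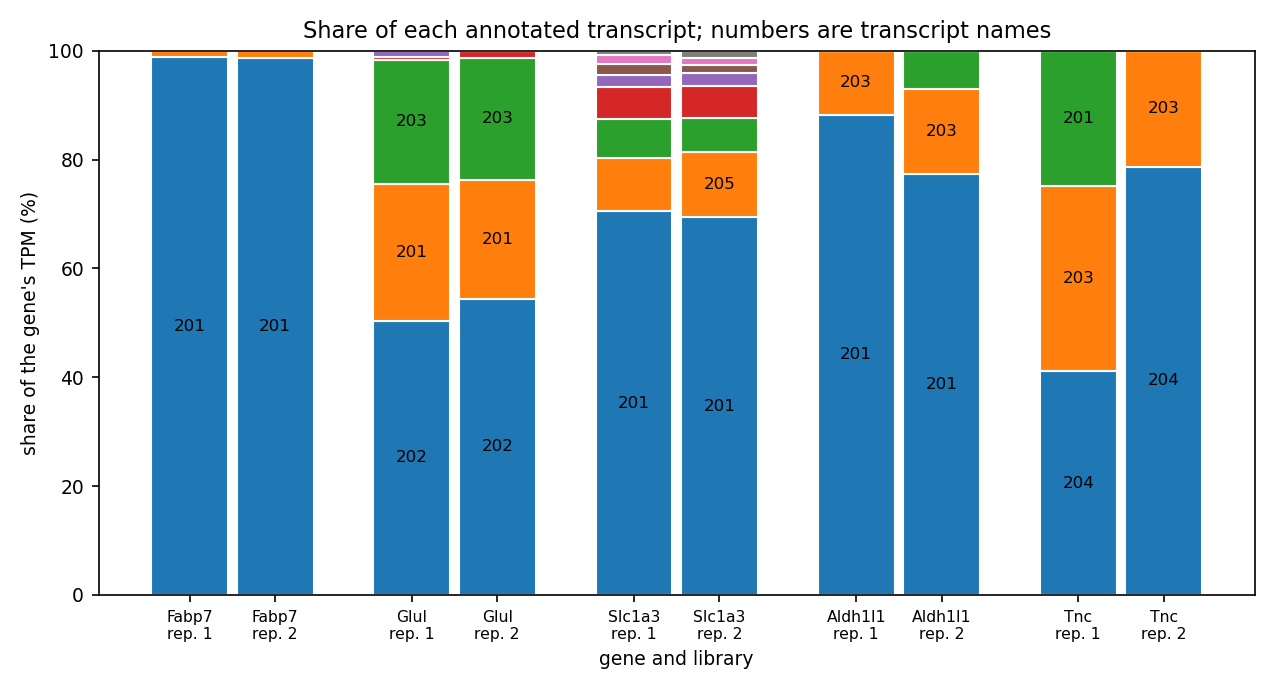
Share of TPM of each annotated transcript within its gene in percent, for the 5 genes with several transcripts, in replicate 1 and replicate 2 (rep. 1 and rep. 2). Bars stack to 100%, colours run from the transcript with the highest mean share, and numbers are transcript names for shares of 10% or more. Tnc-204 takes 41.1% in replicate 1 and 78.7% in replicate 2, while the shares of Fabp7, Glul and Slc1a3 stay close.

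None of the 8 genes that averaged 1 TPM or higher was 2-fold apart (0 of 8), where 1.44% of 15735 genes were, and 3.41% of them were 1.5-fold apart. The largest log2 ratio among the 10 was that of Sparcl1, -0.14 for replicate 1 over replicate 2, taken on log2(TPM + 1). For comparison the SD of this ratio over genes was 0.14 between 20 and 100 TPM, and 0.11 above that. Of the 10 genes 3 were higher in replicate 1 (Glul, Gja1 and Aqp4) and 7 in replicate 2, and over all 15735 genes the median log2 ratio was -0.03.

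The deposited TPM intervals of 2 of the 8 genes, Fabp7 and Sparcl1, did not overlap between the libraries, where those of 14.3% of all genes did not. Both were higher in replicate 2, and 10.1% of all genes had intervals apart with the higher one in replicate 2. Sparcl1 ran from 59.5 to 63.4 TPM in replicate 1 and from 66.0 to 70.1 TPM in replicate 2. Its count ratio was -0.11 on the log2 scale (95% exact binomial interval -0.18 to -0.05, counting error only). The 8 endothelial markers, all detected and none at 0, summed to 166 TPM in replicate 1 and 177 TPM in replicate 2, and 7 of 8 were higher in replicate 2. Of all 15735 genes, 58.5% were higher in replicate 2, and so were 7 of 8 Schwann cell and neural crest markers, 6 of 6 macrophage markers and 5 of 6 neuronal markers. Other lists leaned to replicate 1, among genes that averaged 1 TPM or higher. Higher there were 4 of 4 muscle markers, 4 of 4 cartilage and sclerotome markers, and 9 of 14 further radial glia and progenitor genes. The part of endothelial cells in the Sparcl1 difference was not tested. The TPM values of Fabp7 and Gja1 lay above their own deposited intervals in both libraries (Fabp7 at 1407 to 1446 TPM in replicate 1), as TPM did outside its interval for 6.09% of genes in replicate 1.

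By counts, Glul was higher in replicate 1, with a log2 ratio of 0.21 (0.12 to 0.30, counting error only), although its ratio in TPM was 0.09 and its TPM intervals overlapped. The full-length Glul-201 alone came to 26.9 TPM in replicate 1 and 22.1 in replicate 2, with intervals that did not overlap, while Glul-202 had 54.0 and 54.9 TPM. The low genes could not be compared closely. The count ratio of S100b was -0.05 with an interval from -1.0 to 0.89, and that of Aqp4 was 0.50 with an interval from -0.18 to 1.20.

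**Figure D5:**
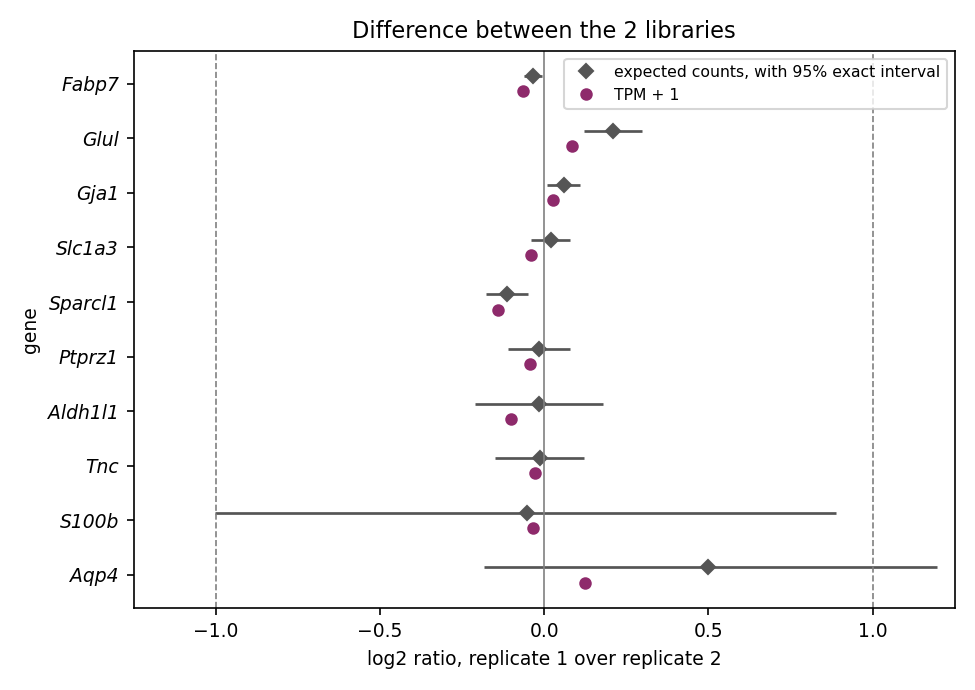
Log2 ratio of replicate 1 over replicate 2 for each gene, from expected counts with the 95% exact binomial interval for counting error (diamonds, lines) and from TPM + 1 (circles). Dashed lines mark 2-fold. Points lie within 0.21 of 0 for 9 genes, and the intervals of S100b and Aqp4 are the widest.

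The remaining marker lists give the tissue around these genes. All 6 neuronal markers were detected, led by Tubb3 (1017 ± 18.9 TPM), and summed to 1886.5 TPM in replicate 1 and 2054 TPM in replicate 2. All 6 macrophage markers were detected with sums of 80.6 and 88.4 TPM, and all 4 muscle markers with sums of 243 and 173 TPM. Of the 10 genes, 3 lie on chromosome 10 (Gja1, Fabp7 and S100b), and 1382367 bases separate the end of Gja1 from the start of Fabp7. Besides the overlap of S100b with Dip2a, the overlapping genes of Slc1a3, Glul, Aldh1l1, Tnc and Sparcl1 that are in the tables were each under 1 TPM in both libraries.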

How the data were processed

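Total RNA-seq libraries of mouse neural tube at embryonic day 12.5 were read from the deposited tables per gene and per transcript, 1 library per table. Per the deposited read-me text, the reads were placed on transcripts of GENCODE M4 (mm10), and no quantification program is named there. Per the file headers, the authors deposited expected counts (estimated reads, not always whole), TPM, and the percent of a gene's TPM held by each transcript. The deposited TPM bounds form credibility intervals of unstated level and were handled as a score. Number-named and spike-in rows stayed in the deposited TPM but out of gene counts: mouse genes held 31610805 of 32612423 expected counts in replicate 1 and 33530172 of 34555002 in replicate 2. The series title says that newer data replace it, and those were not analysed here.

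Names, exons and 1-based coordinates were taken from a later release, GENCODE M21 (GRCm38, equal to mm10), matched by identifier without version. Ratios are replicate 1 over replicate 2 on log2(TPM + 1), called at 2-fold, over genes that averaged 1 TPM or higher. Levels of related genes were compared within each library. Count ratios have exact 95% binomial intervals. Replicates are numbered as in the labels, which name no batch. Scaling factors came from edgeR 4.0.16 and DESeq2 1.42.0 on rounded counts, with pandas 2.3.3 and scipy 1.17.1 for the rest. No p-value was computed, since there is 1 group. The 2-fold call was tested on simulated data, with changes placed only in genes above the levels of S100b and Aqp4. That test does not cover changes in genes that low, or changes of exactly 2-fold. The changes placed were all clearly smaller or clearly larger than 2-fold, and the spread added beyond counting noise was the same for every gene. In the data the SD of the log2 ratio was 0.53 over genes at 1 to 5 TPM. The test therefore does not show how the call performs near its limit or in noisier genes.

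The genes, lists and related genes were chosen with earlier results of these data known. By rule the text could name all 10 genes and their relatives, the 3 highest and up to 3 genes under 1 TPM of each other list (marker lists are mostly given by their sums), and transcripts with a mean share of at least 10%. Slc38a3, Itga8 and Itga9 were named beyond this rule after their values were seen.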

Additional observations from a re-analysis of the deposited data

How the results depend on the processing

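The number of genes detected was 8 with posterior mean TPM, 8 in either library alone, 9 at a threshold of 0.5 TPM and 8 at 5 TPM. The median level of 39.0 TPM became 42.1 TPM when TPM was rescaled over mouse genes and 25.2 when counts were divided by the length of the full-length transcript, an alternative added after seeing the data. In single libraries it ran from 37.2 to 40.7 TPM. The share of Fabp7, 80.3% of summed TPM, was 51.6% of expected counts and 83.9% with counts per full-length transcript. In single libraries it ran from 79.9% to 80.6%. The 2-fold count stayed 0 under another pseudocount, no filter, edgeR or DESeq2 scaling and a 1.5-fold limit, while the count over all genes, 226, was 369 with a pseudocount of 0.1 TPM, 382 with no filter, 28 in scaled CPM and 537 at 1.5-fold. The number of pairs with the listed gene higher stayed 4 under all 6 alternatives, and no difference of a pair changed sign. Another pseudocount and either library alone could not change this, since each pair had the same direction in both libraries. Only posterior mean TPM, CPM and counts per full-length transcript could have changed it. Differences did change size, and Ptprz1 minus Ptprg was -0.15 in CPM. The leading transcript was the same in 5 of 5 genes by the posterior mean as well. No paired analysis was possible because there is 1 group. Depth limits S100b and Aqp4, with 44 counts or fewer per library.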
